A study of Mus musculus with 23 samples.

Results

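The genes described here are 9 genes of B lymphocyte development, namely *Cd79a*, *Cd79b*, *Ms4a1*, *Vpreb1*, *Vpreb3*, *Igll1*, *Rag1*, *Pax5* and *Ebf1*, chosen by name from the 21402 genes measured. All 9 were among the 15638 genes that reached a normalized count of 10 in 2 or more libraries. Total RNA was sequenced from bone chips enriched for osteocytes, the tibia and femur shafts left after the marrow was flushed out and the bone surface was digested. The 23 mice were 5-month-old C57BL/6 mice, and each mouse gave 1 library. FNDC5 KO mice lack *Fndc5*, the gene of the irisin precursor, in every cell (genotyping reads the absence of part of an exon), and were bred from heterozygous parents, as were the wildtype (WT) mice. The low-calcium diet held 0.01% calcium and was given for 2 weeks, and the control diet held 0.6% calcium. The groups were KO females on the low-calcium diet (2 mice), KO females on the control diet, WT females on the low-calcium diet, WT females on the control diet, KO males on the low-calcium diet, KO males on the control diet, WT males on the low-calcium diet and WT males on the control diet (3 mice each).

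B lymphocytes are made in the bone marrow. EBF1 and PAX5 are the transcription factors that specify and then commit the lineage, and RAG1, with its partner RAG2, cuts DNA to assemble immunoglobulin genes. In precursor B cells, the newly made heavy chain is paired with a surrogate light chain, built from the products of *Vpreb1* and *Igll1* (lambda5), before a true light chain is available. VPREB3 associates with immunoglobulin chains inside precursor cells. CD79A and CD79B are the signalling chains of the B cell receptor and its precursor form, and *Ms4a1* encodes CD20, a surface protein that appears late in precursor B cells and is kept on mature B cells.

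In mice on the low-calcium diet, *Ms4a1*, *Cd79a* and *Cd79b* fell, by 0.58 ± 0.13, 0.46 ± 0.14 and 0.42 ± 0.13 on the log2 scale (SE, mean of the 4 combinations of genotype and sex), while *Rag1* averaged 0.35 ± 0.15 higher without passing the test. *Fcer2a*, *Fcmr* and other genes of mature B cells fell as well. Females had higher *Ebf1*, *Ms4a1*, *Cd79b* and *Pax5* than males, although only the difference at *Ebf1* held without the shallow libraries described below. Between KO and WT mice, limma as designed called no member in any comparison. DESeq2, and limma with library quality weights, called *Igll1* in females on the control diet.

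A library held 7217601 to 33352631 reads assigned to genes, with a median of 20907756. The study's methods report low mapping percentages, with bacterial reads as a possible source, for the 3 WT females on the low-calcium diet, mice 16, 17 and 18. Mice 16 and 17 had the fewest assigned reads, 11256675 and 7217601, and results that include them are also given without them, which leaves mouse 18 as the 1 WT female on the low-calcium diet, assumed to vary as the other groups do. *Fndc5* checks no label here, because its normalized count was 0 to 12.4 in KO mice and 0 to 17.8 in WT mice. The bone chips also held RNA of marrow cells. The summed normalized counts of 14 neutrophil genes ran from 313422 to 752037 per library, those of 10 osteocyte genes from 8872 to 73097, and those of the 9 B cell genes from 4724 to 14338. In bulk RNA, fewer cells of a type and less RNA per cell cannot be told apart.

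In the GRCm38 (mm10) build, *Cd79a* lies on chromosome 7 at 24897381 to 24902197, *Cd79b* on chromosome 11 at 106311341 to 106314762, and *Ms4a1* on chromosome 19 at 11249675 to 11266241. The genes of the surrogate light chain are neighbours on chromosome 16, *Igll1* at 16860671 to 16863985 and *Vpreb1* at 16868403 to 16870843. *Vpreb3* lies on chromosome 10 at 75943057 to 75949657, and *Rag1* on chromosome 2 at 101638282 to 101649501. *Pax5* spans 44524757 to 44710487 on chromosome 4, and *Ebf1* spans 44617317 to 45008091 on chromosome 11. *Vpreb1* has a close copy, *Vpreb2*, with 86.8% identity over 773 aligned bases of transcript. Reads from stretches where the copies are alike may be lost or assigned to the other copy, which was not measured. *Rag1* overlaps *B230118H07Rik* on the same strand, and reads in the shared stretch cannot be assigned with certainty.

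Promoter sequences are shown for *Vpreb3*, *Igll1* and *Rag1*, the members whose WT male groups did not overlap between diets, and for *Cd79a*, which fell on the low-calcium diet. Each is the 250 bases before the RefSeq transcription start (GRCm38.p6), 5′ to 3′ on the gene's own strand. RefSeq promoters were at hand for 7 of the 9 members, and *Cd79b* and *Ms4a1* had no entry. Capitals mark matches, on either strand, to 4 motifs bound by factors of the B lineage, namely CAGCTG (an E-box, read by E2A), ATTTGCAT (the octamer, read by OCT factors), CCCNNGGG (the core read by EBF1) and TGTGGTT (read by RUNX factors). Over 32851 promoters of this length, the motifs stood in 13.0%, 1.60%, 11.8% and 4.40%. No match of 1 motif overlapped another in the windows shown.
Igll1, chr16:16863986-16864235, minus strand: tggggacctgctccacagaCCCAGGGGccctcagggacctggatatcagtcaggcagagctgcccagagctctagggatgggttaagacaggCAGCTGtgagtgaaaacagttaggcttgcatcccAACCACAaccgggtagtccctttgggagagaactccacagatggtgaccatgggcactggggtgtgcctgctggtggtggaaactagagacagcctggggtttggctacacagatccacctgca
Rag1, chr2:101649533-101649782, minus strand: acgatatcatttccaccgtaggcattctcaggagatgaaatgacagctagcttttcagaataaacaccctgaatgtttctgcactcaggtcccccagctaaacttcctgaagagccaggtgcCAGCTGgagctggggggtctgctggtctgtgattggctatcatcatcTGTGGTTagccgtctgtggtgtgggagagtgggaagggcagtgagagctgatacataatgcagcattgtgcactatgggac
Vpreb3, chr10:75948050-75948299, plus strand: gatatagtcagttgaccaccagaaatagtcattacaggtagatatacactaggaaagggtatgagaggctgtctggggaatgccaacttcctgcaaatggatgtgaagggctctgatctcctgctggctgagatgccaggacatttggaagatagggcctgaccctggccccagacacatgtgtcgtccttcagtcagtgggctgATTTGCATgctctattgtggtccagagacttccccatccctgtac
Cd79a, chr7:24897247-24897496, plus strand: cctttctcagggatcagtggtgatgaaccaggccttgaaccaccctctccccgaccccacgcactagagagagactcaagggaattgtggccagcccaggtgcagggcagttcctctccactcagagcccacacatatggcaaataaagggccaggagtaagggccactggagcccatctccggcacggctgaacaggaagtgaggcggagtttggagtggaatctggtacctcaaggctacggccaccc
The *Igll1* window held an EBF core 231 bases, an E-box 158 bases and a RUNX motif, on the opposite strand, 124 bases before the start. In the *Rag1* window, an E-box stood 128 bases and a RUNX motif 81 bases before the start. The *Vpreb3* window held the octamer 45 bases before the start, and the *Cd79a* window held no match to these letters. Only exact letters were searched, so sites that differ from them are not marked, and a window without a match may still hold such sites.

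Per kilobase of exon, *Cd79a* had the highest level of the 9, with a median of 903 normalized counts per kb over the 23 libraries. *Cd79b* and *Vpreb3* came next with medians of 634 and 587 normalized counts per kb, and their ranges over libraries, 265 to 1132 and 274 to 1005, overlapped almost whole. *Ebf1*, *Rag1* and *Ms4a1* followed at medians of 258, 217 and 170 normalized counts per kb, with overlapping ranges. *Igll1*, *Pax5* and *Vpreb1* were lowest, at medians of 112, 84.7 and 42.8 normalized counts per kb. *Vpreb1* rested on 13 to 194 reads per library, so counting alone blurs its values more than those of the other members.

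The members varied together from mouse to mouse. KO female mouse 20 on the control diet had the highest value of 6 of the 9 members, and KO male mouse 31 on the low-calcium diet had the lowest value of 7. After removal of the group means, all 36 pairs of members were positively correlated over the 23 libraries, with Pearson's r of 0.308 to 0.954 and a median of 0.736. Each pair shares the same libraries and their size factors, so these correlations are descriptions. *Cd79a* and *Cd79b*, whose products form a heterodimer, were the pair with r = 0.954. They did not stand apart, as r was 0.953 for *Cd79b* with *Ms4a1* and 0.936 for *Cd79a* with *Ms4a1*.

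**Figure D1:**
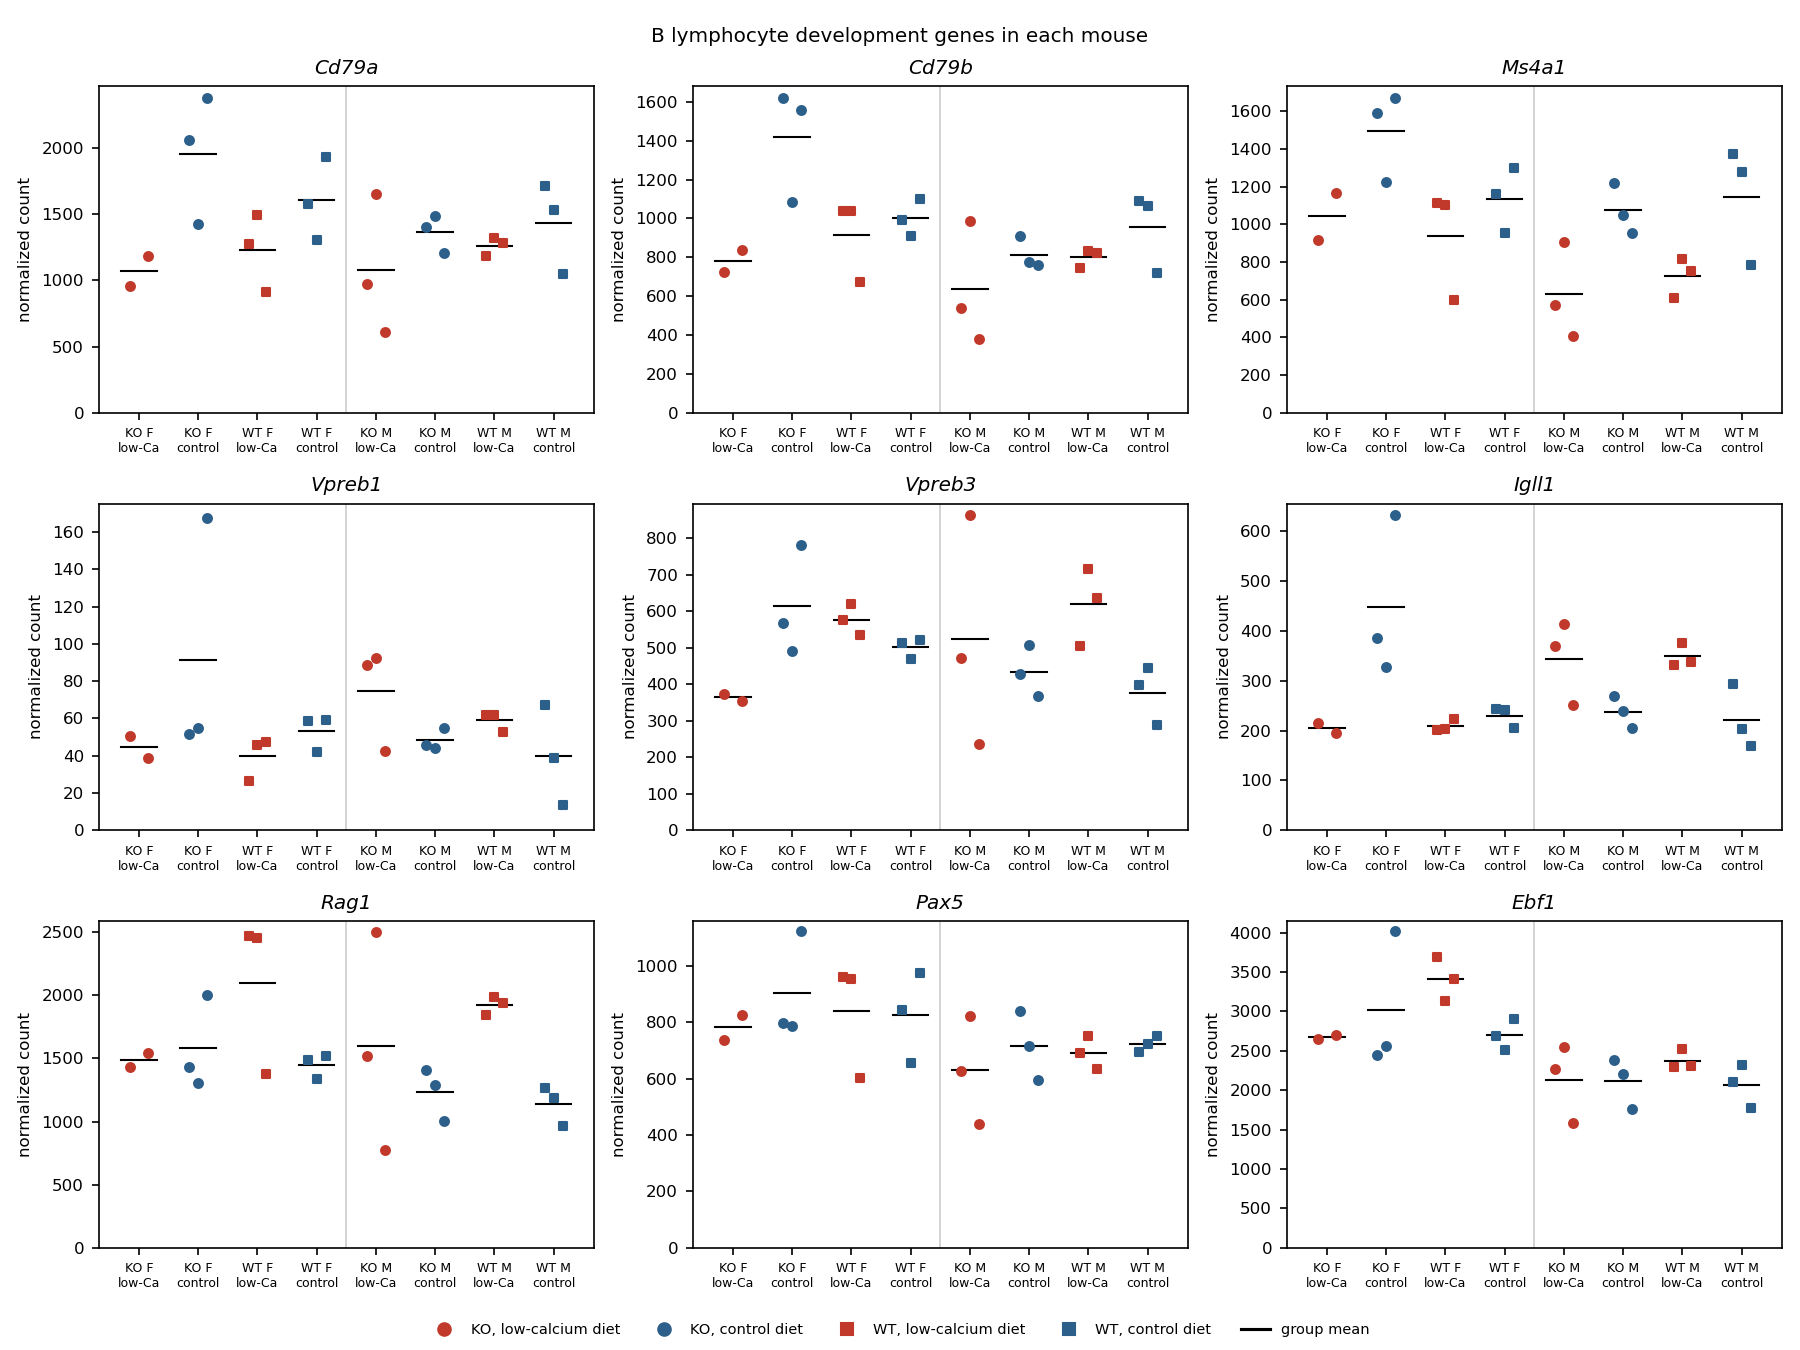
Normalized counts (vertical axes, from 0) of the 9 B lymphocyte development genes in each of 23 mice, by group (horizontal axes), with circles for KO mice, squares for WT mice, red for the low-calcium diet, blue for the control diet and black lines for group means. KO female mouse 20 on the control diet, at 4024 for *Ebf1* and 168 for *Vpreb1*, stands above its group in most panels, and the group means of *Ms4a1* are lower on the low-calcium diet in every genotype and sex.

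The first question the design poses is what the low-calcium diet did, within each genotype and sex and on average over these 4 strata. Differences below are log2 fold changes of normalized count plus 1 with their SE, fitted with limma, and p-values are adjusted over all 15638 genes.

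*Ms4a1*, the CD20 gene, had the largest fall. Its normalized counts in KO males were 573, 906 and 407 on the low-calcium diet, against 1218, 1050 and 956 on the control diet. In WT males they were 610, 814 and 750 on the low-calcium diet, against 1373, 1279 and 784 on the control diet. KO male groups did not overlap, whereas WT male mouse 25 on the control diet fell among the low-calcium mice. KO females had 919 and 1166 on the low-calcium diet, against 1590, 1224 and 1670 on the control diet. WT females had 1110, 1100 and 600.5 on the low-calcium diet, against 1159, 953 and 1297 on the control diet, groups that overlap. Averaged over the 4 strata, *Ms4a1* fell by 0.58 ± 0.13 (SE; 95% interval -0.86 to -0.30; limma adjusted p = 0.00276).

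The receptor chains moved the same way. *Cd79a* had 958 and 1186 normalized counts in KO females on the low-calcium diet, against 2059, 1426 and 2377 on the control diet, without overlap. In KO males, 969, 1652 and 611 on the low-calcium diet stood against 1404, 1489 and 1206 on the control diet. The KO male groups overlapped because mouse 29 was above every control mouse. This library had the lowest osteocyte sum of the 23 (8872 normalized counts) and the highest erythroid, proliferation and megakaryocyte sums (159633, 152507 and 45786), and their part in its values was not tested. In WT females, *Cd79a* was at 1272, 1496 and 911 on the low-calcium diet, against 1573, 1307 and 1933 on the control diet, and in WT males at 1180, 1316 and 1284, against 1712, 1529 and 1044. Averaged over strata, *Cd79a* fell by 0.46 ± 0.14 (SE; limma adjusted p = 0.0153). *Cd79b*, its partner, fell by 0.42 ± 0.13 (SE; limma adjusted p = 0.0155), with a median of 824 normalized counts in the 11 mice on the low-calcium diet (379 to 1040) and of 1028 in the 12 mice on the control diet (717 to 1619).

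In these averages 3 of the 9 members were lower and none was higher, while over all genes 15.4% were lower and 16% were higher. The 3 calls held when each mouse was left out in turn (adjusted p up to 0.0475) and without WT female mice 16 and 17. When the mean of the neutrophil list was added as a covariate, the log2 fold changes were -0.56 for *Ms4a1*, -0.53 for *Cd79a* and -0.39 for *Cd79b*, close to those without it, but none of the 3 passed the test (adjusted p of 0.0991, 0.126 and 0.229 in that order). The neutrophil list itself had 8 of 14 genes lower on the low-calcium diet, with sums of 313422 to 592240 on that diet and 325665 to 752037 on the control diet. Its part in the result was not tested beyond that fit, in which 1449 genes were called, against 4911 without the covariate.

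*Rag1*, the recombinase gene, did not fall with the receptor genes. WT males had 1845, 1989 and 1939 normalized counts on the low-calcium diet, against 1268, 1185 and 965 on the control diet, without overlap. KO males had 1516, 2502 and 774 on the low-calcium diet, against 1404, 1291 and 1008 on the control diet, so that the low-calcium mice lay on both sides of the controls. WT females had 2472, 2453 and 1375 on the low-calcium diet, against 1485, 1333 and 1521 on the control diet, where only mice 16 and 17 were high. KO females had 1433 and 1546 on the low-calcium diet, against 1435, 1309 and 2003 on the control diet. The average over strata was 0.35 ± 0.15 (SE) with limma adjusted p = 0.0695, against 0.0431 in edgeR and 0.0353 in DESeq2, and it was 0.21 with adjusted p = 0.293 without mice 16 and 17. The average passed in limma without KO male mouse 31 on the low-calcium diet (0.47, adjusted p = 0.00357), without WT female mouse 18 (0.42, 0.0236) or without KO female mouse 20 on the control diet (0.40, 0.0428).

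Within a library, the ratio of 2 genes does not depend on the scaling. *Cd79a* over *Rag1* was 0.515 to 0.790 in the 11 mice on the low-calcium diet, with a median of 0.661, and 0.980 to 1.44 in the 12 mice on the control diet, with a median of 1.17. Every mouse on the low-calcium diet was thus below every mouse on the control diet, mice 16, 17 and 18 (0.515, 0.610 and 0.663) and mouse 31 (0.790) included. *Ms4a1* over *Rag1* was 0.331 to 0.754 with a median of 0.437 on the low-calcium diet, and 0.715 to 1.11 with a median of 0.860 on the control diet. Here only KO female mouse 6 on the low-calcium diet, at 0.754, reached into the range of the control mice, set by WT female mouse 14 at 0.715. In WT males the ratios were 0.331, 0.409 and 0.387 on the low-calcium diet, against 1.08, 1.08 and 0.813 on the control diet. In KO males they lay between 0.362 and 0.526 on the low-calcium diet, against 0.813 to 0.949 on the control diet. These ratios were chosen after the values had been seen and are descriptions without a test. They rest on *Rag1* alone among the precursor genes. A wider index was the mean log2 value of *Cd79a*, *Cd79b* and *Ms4a1* minus that of *Vpreb1*, *Vpreb3*, *Igll1* and *Rag1*. It ran from 0.77 to 2.04 on the low-calcium diet and from 1.52 to 2.37 on the control diet. Of the 11 mice on the low-calcium diet, 7 lay below every control mouse. Its medians on the low-calcium and control diets were 1.84 and 1.91 in KO females, and 1.17 and 2.32 in WT males.

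**Figure D2:**
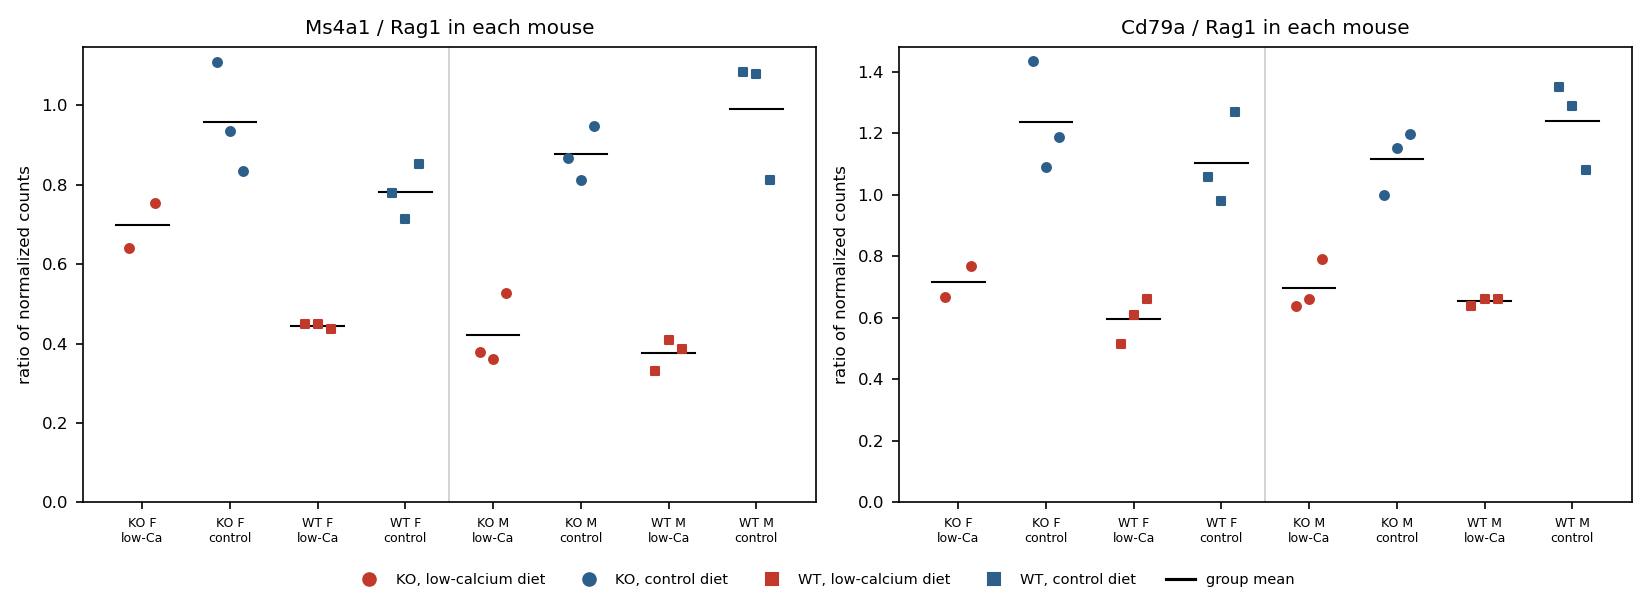
Ratio of normalized counts of *Ms4a1* to *Rag1* (left) and of *Cd79a* to *Rag1* (right) in each mouse, by group, with symbols and colours as in the plot of the 9 genes and black lines for group means. In the right panel all 11 mice on the low-calcium diet lie at or below 0.790 and all 12 mice on the control diet at or above 0.980.

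The surrogate light chain gene *Igll1* was lower on the low-calcium diet in KO females, whereas its group means in males were higher. It had 216 and 196 normalized counts in KO females on the low-calcium diet, against 385, 327 and 632 on the control diet, and fell by 1.06 ± 0.24 (SE; limma adjusted p = 0.0143). This was limma's only call of a member for diet within a single genotype and sex, 1 of 9 against 7.4% of all genes, and it did not hold without mouse 5 or without mouse 6 (adjusted p = 0.0906 and 0.14) or in a fit of these groups alone (0.0694). In KO males, *Igll1* was at 369, 414 and 250 on the low-calcium diet, against 270, 238 and 206 on the control diet. In WT males it was at 332, 376 and 338, against 294, 203 and 168, without overlap (0.69 ± 0.22, SE; limma adjusted p = 0.0678). WT females had 202, 202 and 222 on the low-calcium diet, against 243, 242 and 206 on the control diet. The diet effect on *Igll1* in females minus that in males was -1.57 in KO mice, with limma adjusted p = 0.15, and -0.82 in WT mice, with adjusted p = 0.269. In KO mice DESeq2 called this difference (-1.66, adjusted p = 0.00222), as did limma with library quality weights (-1.32, adjusted p = 0.0185), but limma as designed and edgeR did not, so whether the sexes differ depends on the tool. Among KO mice, the weighted fit counted male mouse 29 on the low-calcium diet and female mouse 20 on the control diet least (weights of 0.27 and 0.47). Without KO female mouse 19 on the control diet, limma called it too (-1.77, adjusted p = 0.0447).

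*Vpreb3* had 504, 716 and 636 normalized counts in WT males on the low-calcium diet, against 396, 445 and 289 on the control diet, without overlap (0.72 ± 0.29, SE; limma adjusted p = 0.154). In KO females it was at 374 and 354 on the low-calcium diet, against 568, 491 and 782 on the control diet, also without overlap but lower (-0.73 ± 0.33; adjusted p = 0.173). Neither passed the test, and the average over strata was 0.071 (95% interval -0.24 to 0.38). *Vpreb1*, the scarcest member, averaged 0.029 (95% interval -0.47 to 0.52) and ranged from 26.7 to 92.3 normalized counts on the low-calcium diet and from 13.6 to 168 on the control diet. *Igll1* averaged -0.00050 (95% interval -0.23 to 0.23) over strata.

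Neither transcription factor passed the test of diet. *Pax5* had a median of 738 normalized counts on the low-calcium diet (440 to 962) and of 769 on the control diet (596 to 1124), an average difference of -0.12 ± 0.11 (SE; limma adjusted p = 0.438). *Ebf1* had a median of 2545 on the low-calcium diet (1584 to 3687) and of 2416 on the control diet (1760 to 4024), an average difference of 0.10 ± 0.09 (SE; limma adjusted p = 0.405). In WT females alone, *Ebf1* was at 3687, 3131 and 3405 on the low-calcium diet, against 2688, 2514 and 2904 on the control diet, groups that did not overlap, with adjusted p = 0.186.

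The shares of all genes called in this paragraph are those of limma. DESeq2 called 5335 genes in the diet average, against 4911 by limma, and its own shares are not given. Within WT females, 0 of 9 members were called by limma, edgeR and DESeq2 alike, against 16.1% of all genes, and none had an unadjusted p under 0.05. In KO females limma and edgeR called 1 (*Igll1*), with 4 at an unadjusted p under 0.05, and DESeq2 called 2, *Igll1* and *Cd79b* (-0.86, adjusted p = 0.0194), against 7.4% of all genes. Without KO female mouse 19 on the control diet, limma called *Cd79b* there too (-1.03, adjusted p = 0.0459). In WT males limma and edgeR called 0 of 9, with 4 at an unadjusted p under 0.05, and DESeq2 called 1 (*Igll1*, adjusted p = 0.0454), against 4.88% of all genes. In KO males limma and edgeR called 0, with 2 at an unadjusted p under 0.05, and DESeq2 called 1 (*Ms4a1*, adjusted p = 0.0416), against 3.41% of all genes. Without KO male mouse 29 on the low-calcium diet, limma called *Ms4a1* (-1.14, adjusted p = 0.0109) and *Cd79b* (-0.84, adjusted p = 0.0224) lower in KO males. Without WT male mouse 7 on the control diet, it called *Igll1* higher in WT males (0.91, adjusted p = 0.0414). Groups that did not overlap were found for 2 of 9 members in WT females (29% of all genes), 3 in WT males (32.5%), 6 in KO females (43.6%) and 1 in KO males (22.7%). None of the 9 diet effects differed between KO and WT females (0.0128% of all genes; 2 at an unadjusted p under 0.05), between KO and WT males (0%; none), between WT females and WT males (0.173%; 1) or between KO females and KO males (0%; 1) by limma. edgeR also called 0 in these 4 tests, as did DESeq2 apart from *Igll1* in the last.

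Other genes of the B lineage were read from lists compiled from general knowledge, and their counts stand against 15.4% of all genes lower and 16% higher in the same average. Among 14 genes of mature B cells, 11 fell and 1 rose on the low-calcium diet (mean of 4 strata, median of the list -0.36, against -0.010 over all genes). *Fcer2a*, the low-affinity IgE receptor CD23, had the largest fall, at 169 to 355 normalized counts in the 11 mice on the low-calcium diet and 376 to 624 in the 12 mice on the control diet. The groups did not overlap, and the log2 fold change was -1.02 ± 0.10 (SE; limma adjusted p = 1.11e-06). *Fcmr*, the IgM Fc receptor, fell by 0.84, *H2-Ob*, a regulator of peptide loading on MHC class II, by 0.74 and *Cd37*, a tetraspanin, by 0.36 (log2), with adjusted p of 2.39e-05, 7.10e-05 and 6.40e-06. With the neutrophil covariate 7 of 14 were lower, in a fit that called 1449 of all genes either way, against 4911 in the main fit. The shares above belong to the main fit, and those of the covariate fit by direction are not given.

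Of 15 genes of B cell receptor signalling, 9 fell and 2 rose, with a median log2 fold change of -0.19. *Cr2*, the complement receptor CD21 of mature B cells, fell by 0.95, and *Bank1* and *Cd22*, a scaffold and an inhibitory coreceptor, fell by 0.61 and 0.60 (log2). Among 12 further transcription factors 5 fell, *Pou2f2* (OCT2) by 0.63 and *Irf8* by 0.36, and none rose. Of the 12 pro-B and pre-B genes 2 were higher and 1 was lower, counts near the shares over all genes, with a median of 0.10. *Sox4*, a transcription factor needed for pro-B cell development, was 0.74 ± 0.07 (SE) higher, at 770 to 1885 normalized counts on the low-calcium diet and 499 to 828 on the control diet (limma adjusted p = 7.03e-07), though *Sox4* is made by other cells as well. *Cd93* rose by 0.35 and *Arpp21* fell by 0.33 (log2).

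Among 7 plasma cell genes, *Sdc1* (CD138) and *Prdm1* (BLIMP1) rose by 0.57 and 0.56 (log2), while *Jchain*, *Derl3* and *Mzb1* fell by 0.45, 0.39 and 0.39. Both *Sdc1* and *Prdm1* are also made by cells outside the B lineage. Of 10 factors with which the marrow supports B lymphopoiesis, 3 fell, *Flt3l* by 0.44, *Tnfsf13b* (BAFF) by 0.29 and *Vcam1* by 0.22, and none rose. The immunoglobulin chain genes were not analysed here.

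Genes of other cells moved with diet too. Of 13 T and NK cell genes 10 fell and none rose, with a median of -0.50, *Klrb1c* (NK1.1) by 0.70, *Cd8a* by 0.68, *Cd3e* by 0.49 and *Cd4* by 0.39 (log2). Their summed counts were 1670 to 2500 on the low-calcium diet and 2101 to 3036 on the control diet. None of 6 erythroid genes was called by limma, edgeR or DESeq2 (*Ermap* had an unadjusted p of 0.0296), and of 10 proliferation genes 1 rose. All 10 hepatocyte genes fell in the average of the 4 strata, with sums of 0 to 206 normalized counts on the low-calcium diet and of 16.2 to 21672 on the control diet, where WT males had 2674, 21672 and 1689. In WT females the sums were higher on the low-calcium diet, at 124 to 206, than on the control diet, at 16.2 to 70.0. There 2 of the 10 genes were called higher and none lower, near the 16.1% of all genes changed either way. The low-calcium libraries of this group are those with low mapping percentages. The part of these lists in the results above was not tested.

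**Figure D3:**
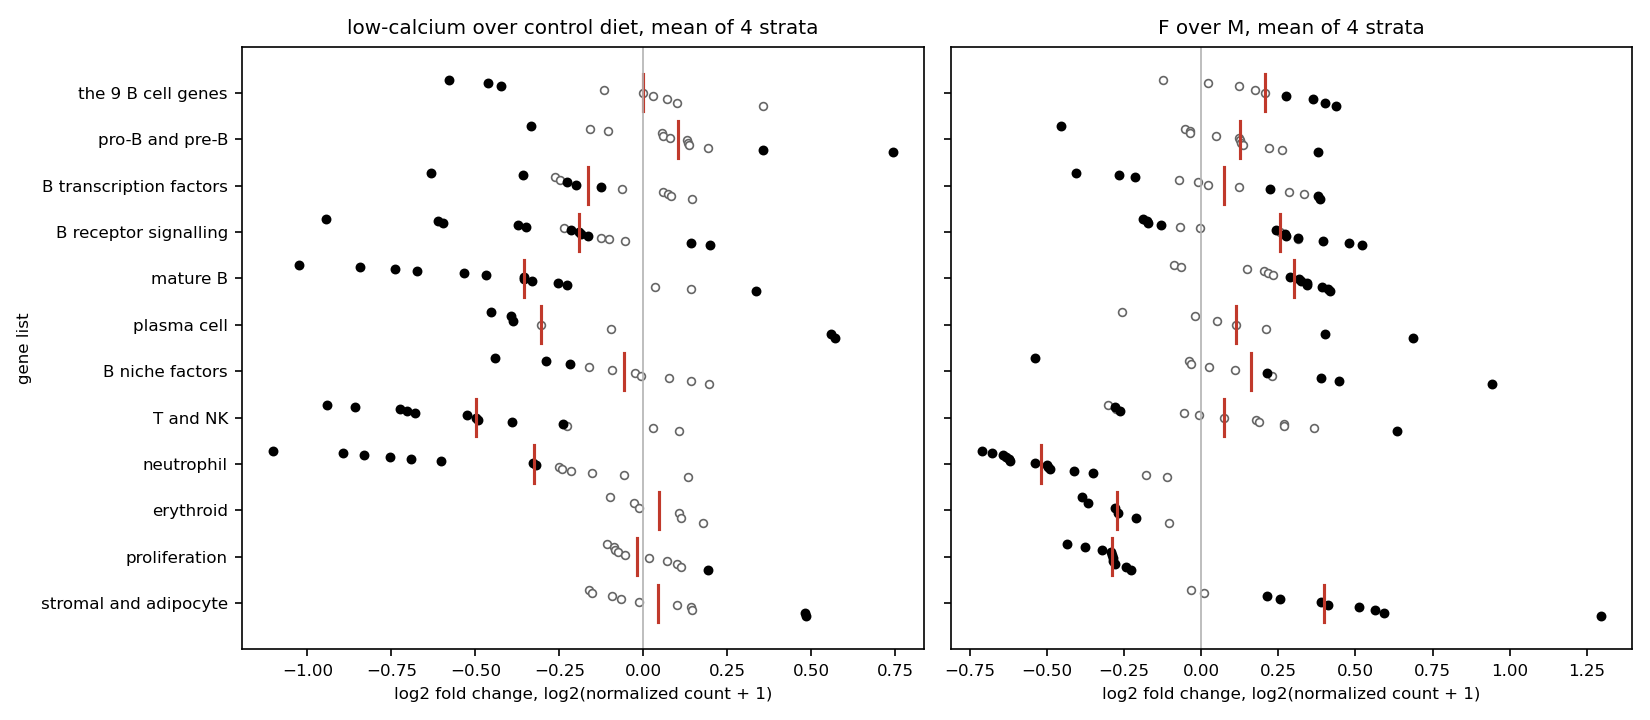
Log2 fold change of normalized count plus 1 (horizontal axes) for each gene of 12 lists (rows), low-calcium over control diet on the left and female over male on the right, each the mean of 4 strata. Filled points passed an adjusted p of 0.05 in limma, open points did not, and red bars are list medians. On the left, the medians of mature B genes (-0.36) and of T and NK genes (-0.50) lie below 0 and that of pro-B and pre-B genes (0.10) above it.

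The second question was whether loss of FNDC5 changed these genes. It did so for 0 of 9 members in every comparison by limma, against 0% of all genes in females on the control diet, 0.46% in males on the control diet, 1.24% in females on the low-calcium diet, 0.00639% in males on the low-calcium diet and 0.0576% in the average over strata. At an unadjusted p under 0.05, there was 1 member in females on the control diet, 1 in the average and none in the other 3. edgeR called 0 throughout, and DESeq2 called 1, in females on the control diet.

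That gene was *Igll1*, at 385, 327 and 632 normalized counts in KO females on the control diet, against 243, 242 and 206 in WT females on the control diet, groups that did not overlap. The log2 fold change was 0.90 ± 0.22 (SE), with adjusted p = 0.274 in limma and 0.0295 in DESeq2. Limma with library quality weights called it too (0.69, adjusted p = 0.0284). On the low-calcium diet the female groups overlapped, at 216 and 196 in KO mice, against 202, 202 and 222 in WT mice. Averaged over strata, *Igll1* was 0.24 higher in KO mice (95% interval 0.0093 to 0.475; adjusted p = 0.528) and *Vpreb1* 0.38 higher (95% interval -0.11 to 0.88; adjusted p = 0.682). For the other 7 members the averages lay between -0.16 for *Rag1* and 0.066 for *Ms4a1*, and their 95% intervals lay within -0.47 and 0.35. Changes of less than that size are not excluded by these intervals.

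**Figure D4:**
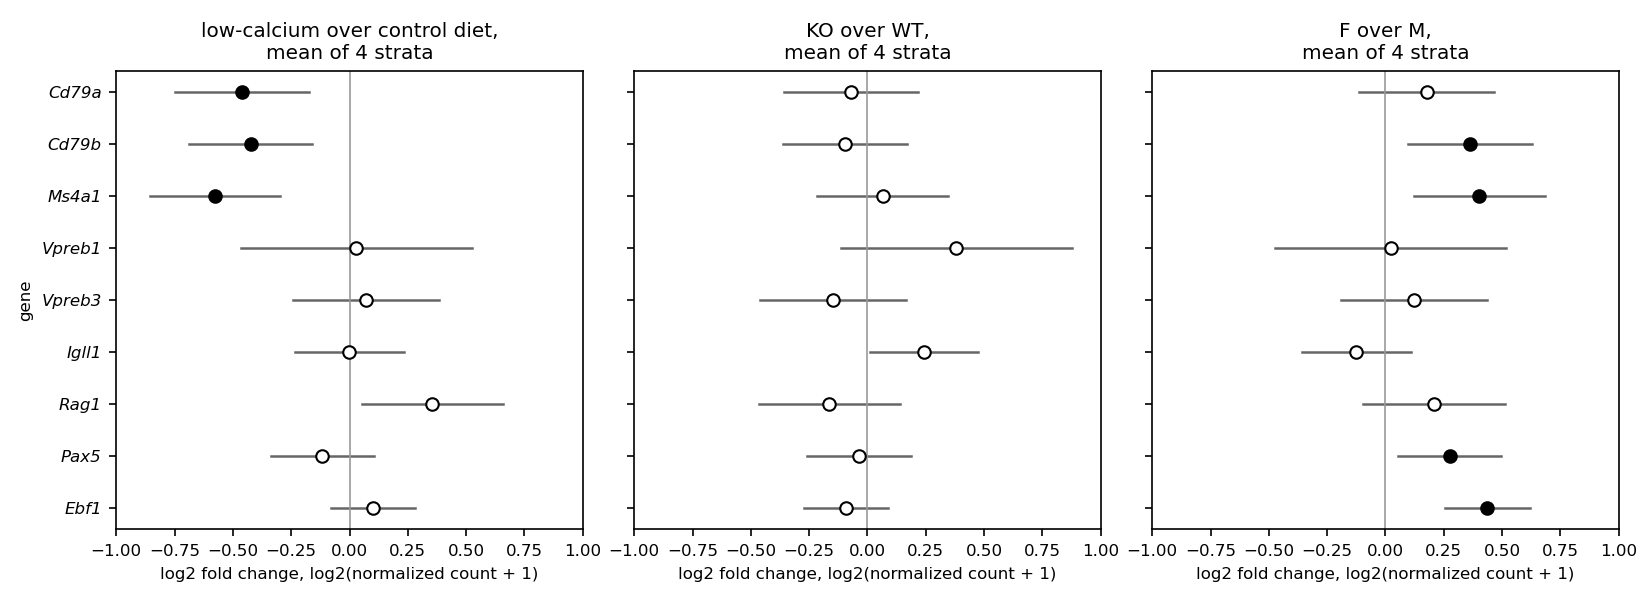
Log2 fold change of normalized count plus 1 (horizontal axes, with 95% intervals from limma as bars) of the 9 genes, for low-calcium over control diet, KO over WT and female over male, each the mean of 4 strata. Filled points passed an adjusted p of 0.05 over all genes. *Ms4a1*, *Cd79a* and *Cd79b* lie below 0 in the diet panel, no gene is filled in the genotype panel, and *Ebf1*, *Ms4a1*, *Cd79b* and *Pax5* lie above 0 in the sex panel.

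The third comparison was of females with males, in the average of the 4 combinations of genotype and diet. *Ebf1* was at 2451 to 4024 normalized counts in the 11 females, with a median of 2701, and at 1584 to 2545 in the 12 males, with a median of 2282. The sexes met only where KO male mouse 29 (2545) and WT male mouse 9 (2524), both on the low-calcium diet, exceeded KO female mouse 4 (2451) and WT female mouse 14 (2514), both on the control diet. The average log2 fold change was 0.44 ± 0.09 (SE; 95% interval 0.26 to 0.62; limma adjusted p = 6.21e-04). This call held when each mouse was left out in turn (adjusted p up to 0.00263), and it also held without mice 16 and 17.

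*Ms4a1*, *Cd79b* and *Pax5* were higher in females by 0.40 ± 0.13, 0.36 ± 0.13 and 0.28 ± 0.11 (log2, SE), with limma adjusted p of 0.0219, 0.0284 and 0.0442. The ranges overlapped widely, as *Ms4a1* was at 600.5 to 1670 normalized counts in females and 407 to 1373 in males. Thus 4 of 9 members were higher and none was lower, while over all genes 20.1% were higher and 20% were lower. Without mice 16 and 17, *Ms4a1* (0.26, adjusted p = 0.137), *Cd79b* (adjusted p = 0.139) and *Pax5* were no longer called. The call of *Ms4a1* was also lost without KO female mouse 6 on the low-calcium diet (adjusted p = 0.0675). That of *Cd79b* was lost without the same mouse (0.0736), without WT male mouse 25 on the control diet (0.0559) or without WT female mouse 16 (0.0511). That of *Pax5* was lost without any of 16 of the 23 mice, numbers 1, 5, 6, 7, 8, 12, 16, 17, 20, 24, 25, 26, 27, 28, 31 and 32 (adjusted p up to 0.102). With the neutrophil covariate the log2 fold changes were 0.42 for *Ms4a1* and 0.40 for *Cd79b*, no smaller than without it, but 0.21 for *Ebf1* and 0.025 for *Pax5*. None of the 4 was called in that fit (adjusted p of 0.301, 0.301, 0.373 and 0.950 in that order), in which 84 genes were called in all, against 6264.

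Within single groups, *Igll1* in WT mice on the low-calcium diet was at 202, 202 and 222 normalized counts in females, against 332, 376 and 338 in males, without overlap. It was lower in females by limma (-0.74 ± 0.22, SE; adjusted p = 0.0139), and *Ebf1* was higher in the same comparison (0.52 ± 0.17, SE; adjusted p = 0.0238), 2 of 9 members against 31.9% of all genes. Without mice 16 and 17, with mouse 18 the 1 WT female left, the log2 fold changes were -0.64 for *Igll1* and 0.52 for *Ebf1*, and neither was called (adjusted p of 0.13 and 0.113). That of *Igll1* was also lost without WT male mouse 9 (0.0504), and that of *Ebf1* without WT female mouse 16 or 18 or WT male mouse 8 or 26 (up to 0.0827). In KO mice on the control diet *Igll1* was higher in females (385, 327 and 632, against 270, 238 and 206 in males; 0.86 ± 0.22, SE; limma adjusted p = 0.0351), 1 of 9 against 3.91% of all genes. That call was lost without any of mice 4, 20, 10, 27 and 28 (adjusted p up to 0.191), and without mouse 19 *Cd79b* was called too. In WT mice on the control diet 0 members were called by limma, edgeR and DESeq2 (by limma, 1.89% of all genes; 1 at an unadjusted p under 0.05). In KO mice on the low-calcium diet limma and edgeR called 0 and DESeq2 called 1 (by limma, 2.59% of all genes; 2 at an unadjusted p under 0.05).

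Of 14 mature B genes, 8 were higher in females and none lower by limma (4 higher without mice 16 and 17), against 20.1% of all genes higher and 20% lower, including *H2-Eb1*, *Ccr7* and *Cd74* at 0.39, 0.41 and 0.34 (log2). Shares over all genes in the fit without mice 16 and 17 are not given. Over the 23 libraries, Pearson's r with the mean z-score of the 9 members was 0.095 for *Ccr7*, 0.575 for *H2-Eb1* and 0.590 for *Cd74*. Which cells made these transcripts was not tested. The other B lineage lists were mixed, as 3 of 12 transcription factors were higher and 3 lower, and 1 of 12 pro-B and pre-B genes was higher and 1 lower. Of 15 receptor signalling genes 7 were higher and 4 lower (4 and 5 without those mice), with *Cd72*, an inhibitory coreceptor, 0.52 higher and the kinase gene *Lyn*, which myeloid cells also make, 0.18 lower (log2 fold change -0.18). *Il7*, the cytokine that precursor B cells of the mouse need, was at 123 to 251 normalized counts in females and 41.6 to 135 in males, 0.94 ± 0.11 higher (log2, SE; limma adjusted p = 8.02e-06). *Kitl*, another marrow factor, was 0.39 higher and *Tnfsf13b* was 0.54 lower (log2 fold change -0.54).

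Markers of other cells differed between the sexes as well. Of 14 neutrophil genes 12 were lower in females, with sums of 313422 to 654974 and a median of 358302 in females, and of 481225 to 752037 and a median of 554511 in males. All 10 proliferation genes and 5 of 6 erythroid genes were lower in females, and 8 of 10 stromal and adipocyte genes were higher, *Adipoq* (adiponectin) by 1.30 on the log2 scale. *Ebf1* is also made by marrow stromal cells and adipocyte precursors. Over the 23 libraries its Pearson's r with the mean of the stromal and adipocyte list was 0.788 (0.693 within groups), and with the mean of the neutrophil list -0.691. The same r with the stromal list was 0.510 for *Pax5* and 0.192 for *Cd79a*. These are descriptions over libraries that share depth and scaling, and the part of these cells in the result was not tested.

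The genes most like the 9 members, by Pearson's r of their log2 values with the members' mean z-score over the 23 libraries, were *Dpp4* (0.955), *Fcrla* (0.928), *Atp1b1* (0.891), *Pou2af1* (0.888), *Snn* (0.870) and *Spib* (0.868) of 15629 genes ranked. *Fcrla*, *Pou2af1* (the OCT coactivator OBF1) and *Spib* are known B lineage genes. After removal of group means, the values were 0.950 for *Dpp4*, 0.924 for *Fcrla*, 0.972 for *Pou2af1* and 0.923 for *Spib*. *Rag2*, the partner of *Rag1*, ranked at place 18 with r = 0.819, and *Il7r*, the receptor gene for IL-7, at place 12 with r = 0.851. These were the best ranked of the pro-B and pre-B list. Its other genes ran from place 33 for *Bcl7a* (r = 0.743) to place 10999 for *Cd93* (r = -0.132), so the list as a whole did not follow the members.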

How the data were processed

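Total RNA of osteocyte-enriched bone chips was sequenced from 23 mice in 8 groups, each mouse being a separate animal and 1 library. The deposited values are a signal per gene, namely read counts that the authors scaled by DESeq2 size factors. Per the submitters' processing notes and the methods, reads were checked with FastQC 0.11.5, aligned to mm10 with STAR 2.7.10a and counted by strand with featureCounts. No source used here names the gene annotation. Bacterial reads were not removed, and 1 further library, labelled KO female, was not analysed here. The authors left it out because its share of chromosome Y reads was like that of males and its *Xist* was very low. Dividing each library by its smallest value gave whole reads in 100% of values (within 0.01 reads). Of the 21402 genes, 27 carry symbols turned into dates.

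The 15638 genes that reached a normalized count of 10 in 2 or more libraries were fitted as log2 of count plus 1 with limma 3.58.1 (trended eBayes, R 4.3.3) and 8 group means. P-values are two-sided and adjusted by Benjamini and Hochberg over all genes, and an adjusted p under 0.05 was called. There were 12 comparisons of 2 groups, 3 averages over 4 strata and 4 differences between diet effects. Fold changes of low genes are understated by the pseudocount. An exact permutation test of 3 against 3 mice cannot go below 0.1 and was not used.

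Results were recomputed with edgeR 4.0.16 (TMM) and DESeq2 1.42.0 on the recovered reads, with quantile normalization, with a pseudocount of 5, without the filter, and under the study's own thresholds in DESeq2 (p under 0.01 with a log2 fold change past 1). Further settings were library quality weights, the neutrophil list mean as covariate, the 2 groups of a pair fitted alone, and omission of mice 16 and 17 together or of any mouse. The library weights were uneven, from 0.27 for KO male mouse 29 on the low-calcium diet to 10.3 for WT female mouse 1 on the control diet. The same settings were applied to the other lists after the data had been seen. Named genes were the 9 members, up to 4 genes per list and comparison by smallest adjusted p, and the 10 genes most like the members, of which not all are printed. *Cd79a*/*Rag1* and *Ms4a1*/*Rag1* ratios, *Mzb1*, *Il7r*, *Rag2* and the genes whose promoters are shown were picked after values were seen. Members and lists were chosen with earlier results of these data known. Positions and exon lengths came from GENCODE vM21 (GRCm38), and promoters from RefSeq (GRCm38.p6). The fits were tested on simulated data for the diet comparison in WT males (15425 genes), where limma found 78 of 100 genes changed 2-fold and 100 of 100 changed 4-fold, and called 6 of 15225 unchanged genes. Between mice of a group, the variance at 6538 genes with at least 200 reads was 3.41 to 29.7 times that of counting alone.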

Additional observations from a re-analysis of the deposited data

How the results depend on the processing

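No member that was called changed direction under any setting. The counts below are of members called, of 9, for results that moved by more than 1.5 times. The cause was not tested. Library quality weights and DESeq2 also called more of all genes, 6507 and 5335 in the diet average, against 4911 in the main fit. For KO over WT on average they called 179 and 80 genes, against 9. At the study's thresholds the diet average held 374 calls. Shares over all genes in single comparisons are not given for these settings. DESeq2 called 1 for low-calcium over control diet in WT males, 2 in KO females and 1 in KO males, 1 for KO over WT in females on the control diet, 3 for females over males in KO mice on the control diet and 1 on the low-calcium diet, and 1 for the difference of diet effects between KO females and KO males. Library quality weights gave 2, 4, 3 and 3 for the diet in WT females, WT males, KO females and KO males, 1 for KO over WT in females on the control diet, 1, 2 and 2 for females over males in WT control, KO control and KO low-calcium mice, and 1 for the difference between KO females and KO males. At the study's thresholds in DESeq2, 0 were called in both averages (diet, sex) and for females over males in WT low-calcium and KO control mice, and 1 for the difference between KO females and KO males. The neutrophil covariate left 0 in both averages, 0 for the diet in KO females, and 1 and 0 for females over males in WT low-calcium and KO control mice. Without the filter, and with quantile normalization, females over males in KO control mice gave 0. The 2 groups alone gave 3 for the diet in WT males and 0 in KO females. Without mice 16 and 17, females over males gave 0 in WT low-calcium mice and 1 on average.

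Leaving out each mouse gave 0 to 2 members for the diet in KO females, 0 to 2 in KO males and 0 to 1 in WT males, 0 to 1 for the difference between KO females and KO males, 0 to 2 for females over males in KO control mice, 1 to 2 in WT low-calcium mice and 1 to 5 on average. The diet average kept 3 to 4. Shares over all genes are not given for the fits that leave out a mouse. Whether these counts follow the number of all genes called was not tested. No paired analysis was possible because the groups share no replicate numbers. Where 1 KO or WT female on the low-calcium diet was left, that mouse was assumed to vary as the other groups do. With 2 or 3 mice per group, the spread between mice limits genes of at least 200 reads more than depth does, and *Vpreb1*, with 13 to 194 reads, is limited by depth as well. *Igll1*, with 71 to 732 reads, also fell below 200 reads in some libraries.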
